A study of Sus scrofa with 80 samples.

Results

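Genes of the major histocompatibility complex (MHC) and of its peptide loading machinery were followed across 9 tissues of the Göttingen minipig from 1 week to 2 years of age. They were chosen by name. Every array gene was taken whose symbol began with HLA- or SLA-, the human and the swine prefixes of MHC genes, or was B2M, CIITA, TAP1, TAP2 or TAPBP. Of 23722 genes measured on the array, 11 met this rule. These were 8 class II genes (HLA-DMA, HLA-DMB, HLA-DOA, HLA-DQA1, HLA-DQB1, HLA-DQB2, HLA-DRA and HLA-DRB1) and 3 peptide loading genes (TAP1, TAP2 and TAPBP). The choice was made knowing that HLA-DRA was higher in the cerebral cortex of older animals, so the difference between ages in cortex is given below as values with no test. A further 15 MHC transcripts, B2M and 6 class I genes of the SLA series among them, were listed on the array under a RefSeq accession, were named through RefSeq (assembly Sscrofa11.1), and are described after the 11 genes.

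MHC class II molecules are pairs of an alpha and a beta chain, such as DR and DQ, that display peptides from engulfed proteins to helper T cells. Their peptides are loaded in endosomes with the help of HLA-DM, the product of HLA-DMA and HLA-DMB, and HLA-DO, whose alpha chain is encoded by HLA-DOA, tempers HLA-DM. B cells, dendritic cells and macrophages are the main carriers of class II, and microglia are the main carriers in the brain. TAP1 and TAP2 form the transporter that brings cytosolic peptides into the endoplasmic reticulum, and TAPBP (tapasin) holds empty class I molecules at that transporter.

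Tissues came from naive Göttingen minipigs of a commercial breeder, with no genotype or treatment named, and total RNA was hybridised to one-color custom arrays. Bone marrow, spleen, kidney, liver and 3 brain regions (cerebellum, hypothalamus and cerebral cortex) had 1 female and 1 male sample at each of 4 ages, 1 week, 4 weeks, 2 months and 4 months, or 8 samples per tissue and 56 in all. A male of 2 years gave another sample of each tissue. Testis was sampled in 1 male at every age and ovary in 1 female at the 4 younger ages. The oldest male was raised in part at another site, and its 16 arrays, 8 repeat hybridisations of kidney and 1 of renal pelvis among them, lay on 2 slides of their own, so its age cannot be told apart from its slides and is given as values only. The labels do not say whether tissues of one age and sex came from 1 animal. For each tissue the p-values below measure the spread between single samples of a group. With 1 sample per age and sex, a group mixes both sexes and, except at 1 week alone, more than 1 age. Any change with age inside a group therefore counts as spread. Values are normalized log2 intensities and can be compared between samples of a gene, not between genes.

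Gene spots had a median intensity of 27 to 89 depending on the array, against 17 to 25 for negative controls. The detection limit, set at the 95th percentile of the negative controls, was passed by 72.5% to 93.7% of the genes. Neuron markers averaged between 10.05 and 10.53 in the 3 brain regions and between 2.42 and 4.42 elsewhere, and astrocyte markers between 9.01 and 9.73 against 2.75 to 3.43. The 8 repeat hybridisations of 1 kidney RNA gave SDs of 0.0276 to 0.254 for the 11 genes, with a median of 0.0521 against 0.115 over all genes. TAP1, TAP2, TAPBP, HLA-DMA and HLA-DMB were called well above background by the scanner software in all 72 tissue samples and HLA-DRA in 71. HLA-DQB2 was well above background in 66 samples, HLA-DQA1 in 58, HLA-DRB1 in 52, HLA-DOA in 25 and HLA-DQB1 in 3, and no probe of the 11 was saturated. All probes of HLA-DRA, HLA-DQA1, HLA-DQB2, HLA-DMA and HLA-DMB and 2 of the 4 of TAP2 carry a tag for cross-hybridisation in their names, so their values may include related transcripts.

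All 11 genes had their highest tissue mean in spleen, and the 3 brain regions gave the 3 lowest means for 5 of them, HLA-DMA, HLA-DOA, HLA-DQA1, HLA-DQB2 and HLA-DRA. HLA-DRA, the invariant alpha chain of DR, ranged from 12.07 to 14.55 in spleen with a median of 14.16 (n = 9). Its range was 10.33 to 13.68 in bone marrow (median 12.29), 11.00 to 12.40 in kidney (median 12.01) and 10.10 to 11.85 in liver (median 10.78), each with n = 9. The gonads lay lower or alike, with 9.80 to 11.29 in ovary (n = 4) and 7.71 to 10.52 in testis (n = 5). In cerebellum HLA-DRA ranged from 4.94 to 7.97, in cortex from 4.76 to 8.61 and in hypothalamus from 3.40 to 8.65, with medians of 7.33, 7.32 and 7.42 (n = 9 each). No sample of a brain region reached the lowest liver or kidney sample. Neighbours in the order of tissue means overlapped in their ranges at every step for HLA-DRA, and the order of the 3 brain regions among themselves turned when the scanner's processed signal was used.

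**Figure D1:**
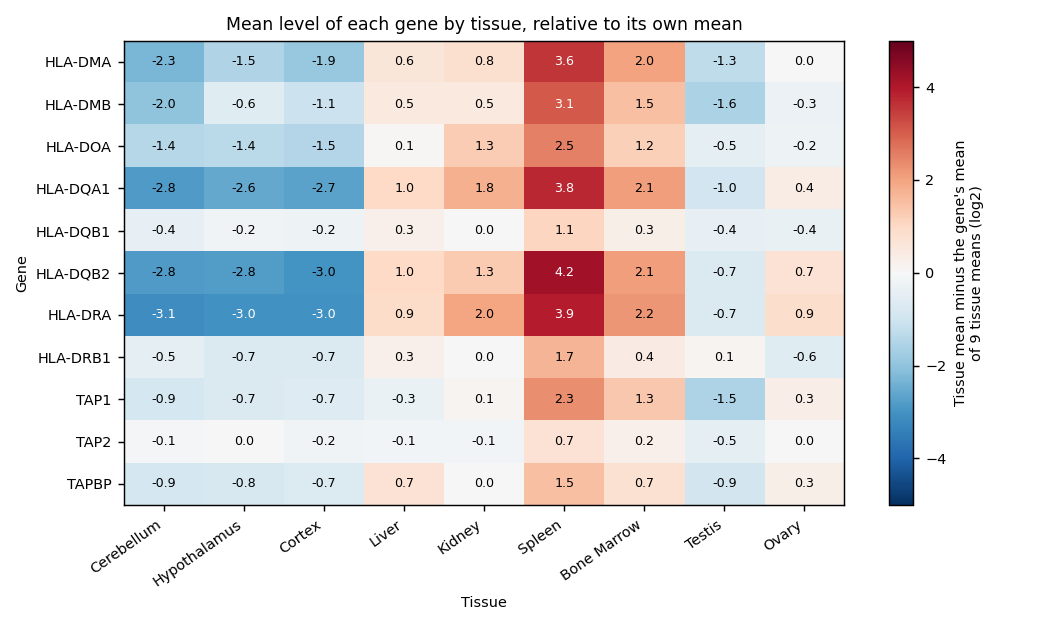
Mean level of each of the 11 genes (rows) in each of 9 tissues (columns), drawn as the difference in log2 units from the gene's own mean over the 9 tissue means; each tissue mean is over 9 samples, except testis (5) and ovary (4). The spleen column is the highest in every row, and the class II rows HLA-DRA, HLA-DQA1 and HLA-DQB2 show the deepest drop in cerebellum, hypothalamus and cortex.

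The peptide loading genes followed another order at the low end. TAP1 had its lowest mean in testis, with 7.16 to 8.94 (median 7.72, n = 5), a range that overlapped with the brain regions, whose medians were 8.59 in cerebellum, 8.86 in hypothalamus and 8.88 in cortex. Testis was also the tissue with the lowest mean for TAP2 (4.86 ± 0.45, SD, n = 5) and TAPBP (5.28 ± 0.68, n = 5). HLA-DMB stood between the 2 patterns, with means of 7.67 ± 0.60 in hypothalamus, 7.20 ± 0.36 in cortex, 6.68 ± 0.99 in testis and 6.26 ± 0.34 in cerebellum. Over the 56 samples up to 4 months outside the gonads, tissue took a median of 88.5% of the variance of the 11 genes and the set of age and sex 6.32%, compared with 70.9% and 5.28% over all genes. The lowest tissue share was that of TAP2, 59.7%.

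Spleen and bone marrow are the lymphoid and blood-forming organs of the series. All 11 genes were higher in spleen than in bone marrow over the 8 age and sex sets, where 22.4% of all genes were higher (limma with the set as a block, adjusted p under 0.05). HLA-DQB2, a DQ beta chain, differed most, with 11.99 ± 1.48 in spleen and 9.73 ± 1.42 in bone marrow (SD, n = 8 each), a log2 difference of 2.25 (SE 0.26, limma adjusted p = 7.4e-10). HLA-DRA differed by 1.87 (SE 0.32, limma adjusted p = 4.3e-06) and TAP2 the least, by 0.51 (SE 0.13, limma adjusted p = 0.00094). HLA-DQB1 was well above background in no bone marrow array and in only 3 of 9 spleen samples. Its difference, given as at least 1.67-fold higher in spleen, thus rests on values near background. The median difference of the 11 genes was 1.53 against 0.01 over all genes, and leaving out any 1 age and sex set kept the count at 11. In bulk tissue, fewer cells that carry class II and less RNA per cell cannot be told apart here or in the comparisons that follow.

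Brain regions were set against liver and kidney, 24 samples against 16. Of the 11 genes, 10 were lower in brain, where 40.2% of all genes were lower (limma with the set as a block, adjusted p under 0.05). HLA-DRA lay between 3.40 and 8.65 in brain and between 10.10 and 12.40 in liver and kidney, a 25.6-fold difference (log2 difference -4.68, SE 0.21, limma adjusted p = 8.7e-26). HLA-DQA1, a DQ alpha chain, was 19.1-fold lower and HLA-DQB2 17.4-fold lower, and for both the brain samples lay wholly below. The DM chains were lower by less, with log2 differences of -2.69 for HLA-DMA and -1.78 for HLA-DMB. HLA-DOA was at least 2.43-fold lower, since no brain array measured it well above background. The smallest differences that passed were -0.39 for HLA-DQB1, near background in all 3 regions and both organs, -0.64 for TAP1, -0.76 for HLA-DRB1 and -1.20 for TAPBP. HLA-DRB1 was well above background in only 4 of 9 cerebellum, 3 of 9 hypothalamus and 2 of 9 cortex samples. The brighter SLA-named probes differed more. SLA-DRB1 averaged 6.33 to 6.60 in the brain regions, 9.82 in liver and 10.25 in kidney (n = 9 each). SLA-DQB1 averaged 4.67 to 5.01 in the brain regions, 6.43 in liver and 6.90 in kidney. TAP2 was the exception, with 5.24 ± 0.14 (n = 24) in brain and 5.22 ± 0.23 (n = 16) in liver and kidney (difference 0.02, SE 0.08, limma adjusted p = 0.846). For 6 of the genes the groups did not overlap, compared with 6.07% of all genes.

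Between liver and kidney the genes split. TAPBP was higher in liver by 0.70 (SE 0.12, limma adjusted p = 3.5e-06), where 24.7% of all genes were higher. HLA-DOA (-1.15, SE 0.20), HLA-DRA (-1.03, SE 0.32) and HLA-DQA1 (-0.73, SE 0.29) were lower in liver, where 26.9% of all genes were lower. HLA-DRA averaged 10.79 ± 0.63 in liver and 11.82 ± 0.48 in kidney (n = 8 each, limma adjusted p = 0.00572). The adjusted p of HLA-DQA1 was 0.0305, and it did not pass with the scanner's processed signal, with the authors' table, or without any 1 of the 1-week, 2-month and 4-month female sets or the 4-month male set. The other 7 genes gave differences between -0.40 and 0.29 that did not pass.

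Age was examined in each tissue as the 4 samples at 2 and 4 months against the 4 samples at 1 and 4 weeks. HLA-DRA in the cerebellum, the brain region for motor coordination, was 4.94 in the female and 5.82 in the male at 1 week, and 6.25 and 6.01 at 4 weeks. At 2 months it was 7.39 and 7.52, and at 4 months 7.33 and 7.72, so that the younger and the older samples did not overlap, and the 2-year-old male gave 7.97. The rise was 3.33-fold (log2 difference 1.73, SE 0.24, limma adjusted p = 0.0149). HLA-DQA1 lay between 2.95 and 3.48 in the younger and between 3.99 and 4.43 in the older samples. Its log2 difference was 0.92 (SE 0.15, limma adjusted p = 0.0208), and since no younger sample was well above background it is given as at least 1.85-fold higher. HLA-DMA rose from 5.72 ± 0.36 to 6.55 ± 0.21 (SD, n = 4 each, log2 difference 0.82, SE 0.18, limma adjusted p = 0.0477). HLA-DMA did not pass under other scalings, with an offset of 50, with the authors' table, with sex as a block, or without any 1 sample other than the 4-week female.

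These 3 of 11 genes rose in cerebellum, where 0.957% of all genes were higher in the older samples, and for these 3 the groups did not overlap, compared with 6.05% of all genes. The other 8 gave differences from -0.05 (TAP1) to 0.67 (HLA-DQB2), and the median of the 11 was 0.32 against 0.01 over all genes. Without the 4-month male, or without the 4-month female, none of the 11 passed, and without the 4-week male HLA-DRA alone did. The adjusted p of HLA-DRA ran from 0.00292 to 0.0597 over the alternatives tried. The mean level of 13 microglia and macrophage markers was between 5.66 and 5.83 in the younger and between 5.66 and 5.84 in the older cerebellum samples, and none of the 13 passed in either direction. The mean of 3 general leukocyte markers was 4.03 to 4.34 against 3.87 to 4.22, again with none that passed. Endothelial markers lay lower in the older samples, at 6.03 to 6.12 against 6.29 to 6.43, with 2 of 6 lower, and 1 of 7 T cell and 1 of 3 astrocyte markers were lower. Their part in the result was not tested.

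**Figure D2:**
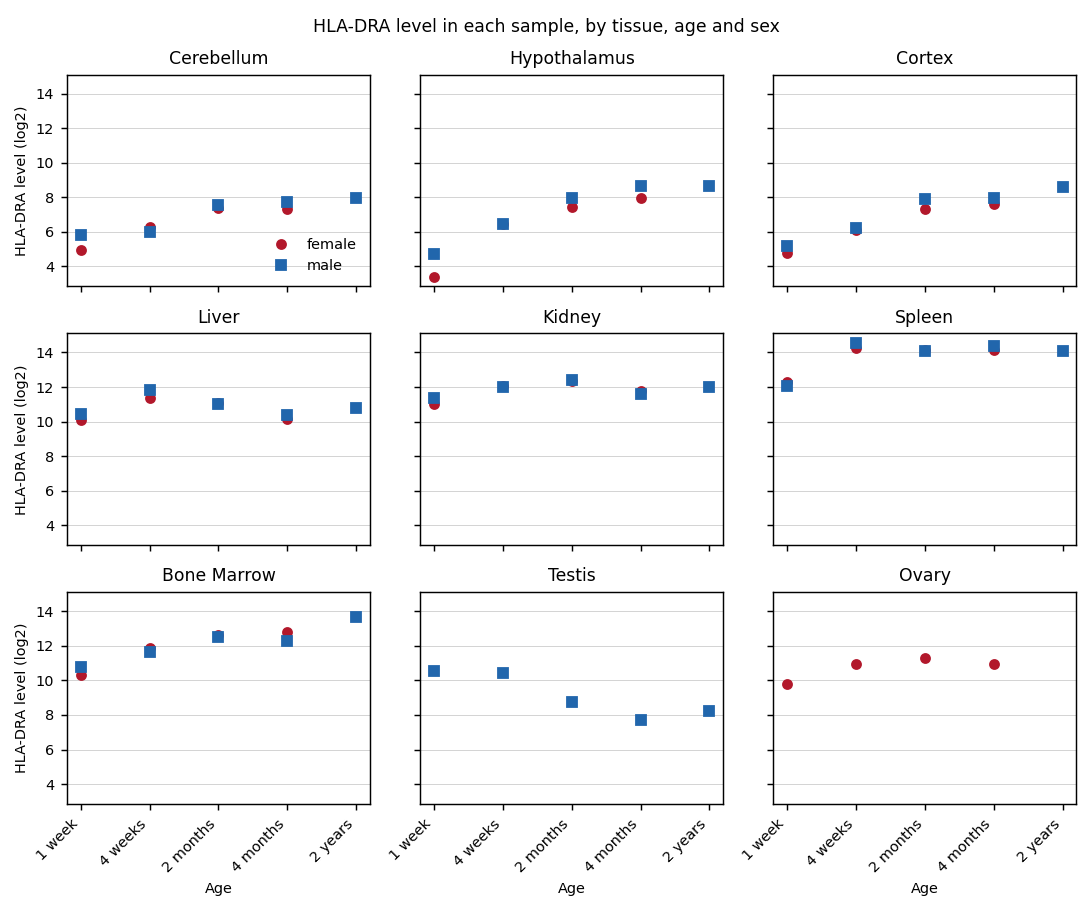
HLA-DRA level (normalized log2 intensity) of every sample by age in each of 9 tissues, with females as red circles and males as blue squares. The 3 brain panels climb from between 3.40 and 5.82 at 1 week to between 7.33 and 8.65 at 4 months, spleen steps up between 1 and 4 weeks, and testis runs the other way, from 10.52 to 7.71.

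The hypothalamus, the brain's centre of hormonal control, gave the widest spread for HLA-DRA. The female and the male gave 3.40 and 4.70 at 1 week, 6.47 and 6.46 at 4 weeks, then 7.42 and 7.97 at 2 months, then 7.97 and 8.65 at 4 months, and the 2-year-old male 8.63. The older samples lay wholly above the younger ones, yet the log2 difference of 2.74 had an SE of 0.63 and did not pass (limma adjusted p = 0.224). None of the 11 genes passed, and none of all genes did either (0% higher and 0% lower). The lowest limma adjusted p among the 11 was 0.137. For 4 of the genes the groups did not overlap, compared with 3.06% of all genes. The other values were 1.92 for HLA-DQA1, 1.78 for HLA-DQB2, 1.08 for HLA-DMA and 0.90 for HLA-DMB. With a linear trend over the 4 ages in place of the 2 groups, HLA-DRA, HLA-DQA1 and HLA-DQB2 passed, 3 of 11 beside 0.143% of all genes that were higher. Microglia and macrophage markers in hypothalamus averaged 6.53 to 6.90 in the younger and 6.80 to 7.10 in the older samples. Of these 13 markers 12 gave a positive difference and none passed. General leukocyte markers were at 4.72 to 5.52 against 5.01 to 5.68, and T cell markers at 5.27 to 5.41 against 5.37 to 5.68. The part of these cells was not tested.

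In the cerebral cortex, the tissue that was in view when the genes were chosen, HLA-DRA was 4.76 in the female and 5.20 in the male at 1 week and 6.08 and 6.24 at 4 weeks. By 2 months it was 7.32 and 7.89, and by 4 months 7.59 and 7.97. The 2-year-old male gave 8.61, the highest cortex value. Group means were 5.57 ± 0.71 and 7.69 ± 0.30 (SD, n = 4 each), a difference of 2.12. HLA-DQA1 differed by 1.24, HLA-DQB2 by 1.22, HLA-DMA by 0.98 and HLA-DMB by 0.57. The groups did not overlap for HLA-DRA, HLA-DQA1, HLA-DMA and HLA-DMB, 4 of 11 beside 5.83% of all genes, and these values were part of the choice. TAP1, TAP2 and TAPBP gave 0.26, -0.05 and 0.17. Microglia and macrophage markers in cortex averaged 6.24 to 6.60 in the younger and 6.43 to 6.80 in the older samples. Of these 13 markers 10 gave a positive difference. T cell markers were at 4.90 to 5.22 against 5.31 to 5.70, with 6 of 7 positive. General leukocyte markers were at 4.49 to 4.73 against 4.55 to 4.71, with 1 of 3 positive. The part of these cells was not tested.

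HLA-DQB2 took another course than HLA-DRA in cerebellum and cortex. In cortex it was 2.97 and 3.16 at 1 week and already 4.90 and 5.14 at 4 weeks, then 4.53 and 5.10 at 2 months and 5.55 and 5.87 at 4 months. Cerebellum gave 3.66 and 3.94 at 1 week and 5.21 and 5.35 at 4 weeks, and hypothalamus 3.15 and 2.78 against 4.98 and 5.08, in each case with female before male. The 1-week samples were thus the low ones, and those at 4 weeks lay within or beside the range of the later ages. In hypothalamus, however, a later sample reached 7.06, and HLA-DRA too had its largest step there from 1 to 4 weeks.

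Because of such steps, the 2 samples at 1 week were also set against the 6 later ones in each tissue, a comparison chosen after seeing the data. In cerebellum HLA-DQB2 was the 1 gene of 11 that passed, at least 2.7-fold higher after the first week (log2 difference 1.43, SE 0.24, limma adjusted p = 0.0309), where 0.27% of all genes were higher. It did not pass when either 1-week sample or a 4-week or 4-month female sample was left out. In hypothalamus 0 of 11 passed (0.0379% of all genes higher, 0.0253% lower), with a lowest limma adjusted p of 0.12, although HLA-DRA differed by 3.44 (SE 0.58).

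Liver and kidney showed no gene of the 11 that passed between the younger and the older group. In liver the median difference was -0.20 and no gene had an unadjusted p under 0.05, while 0.683% of all genes were higher and 1.13% lower. In liver the values at 4 weeks were the high ones. HLA-DRA started at 10.10 and 10.44, was 11.39 and 11.85 at 4 weeks, and came back through 11.06 and 10.99 at 2 months to 10.13 and 10.39 at 4 months. HLA-DQA1 was 7.02 and 7.23, then 8.36 and 8.76, then 8.19 and 8.11, then 6.86 and 6.94. From 1 to 4 weeks 10 of the 11 means went up in liver (median step 0.53), and from 4 weeks to 2 months 1 of 11 did (median step -0.29). These steps compare 2 samples with 2 and were not tested.

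In kidney the lowest limma adjusted p was 0.129, where 3.72% of all genes were higher and 4.74% lower. HLA-DMB was highest at 2 months, with 9.77 and 9.32, and lay at 7.99 and 8.36 at 1 week, at 8.58 and 8.59 at 4 weeks and at 8.61 and 8.60 at 4 months. Against the later samples, the 1-week kidney was lower for 2 of 11 genes, where 0.464% of all genes were higher later. HLA-DQB2 was 7.57 and 7.89 at 1 week and between 9.28 and 9.72 at later ages (3.42-fold, log2 difference 1.77, SE 0.17, limma adjusted p = 0.00147). HLA-DOA was 3.62 and 4.00 at 1 week and between 4.92 and 5.74 later, at least 2.67-fold higher (log2 difference 1.42, limma adjusted p = 0.0185). Leaving out either 1-week sample left 1 of the 2 genes. In liver 0 of 11 passed in this comparison (0.481% of all genes higher, 1.37% lower). HLA-DQB2 in liver was 7.32 and 7.88 at 1 week and 9.88 and 10.34 at 4 weeks.

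In spleen the step with age lay between 1 and 4 weeks. HLA-DRA was 12.27 in the female and 12.07 in the male at 1 week, and between 14.09 and 14.55 in the 6 samples from 4 weeks to 4 months. HLA-DQB2 was 9.79 and 9.43 at 1 week against 12.55 to 12.96, and TAP1 10.23 and 10.32 against 11.98 to 12.67. For all 11 genes the 1-week samples were the lowest ones and did not overlap with the later ones, compared with 21.9% of all genes. All 11 were higher after the first week, where 15.6% of all genes were higher (limma, adjusted p under 0.05).

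The size of this step differed among the genes. HLA-DQB2 rose 9.02-fold (log2 difference 3.17, SE 0.16, limma adjusted p = 9.6e-06), HLA-DQA1 5.8-fold and HLA-DMB 4.65-fold. HLA-DRA rose 4.27-fold (2.09, SE 0.16, limma adjusted p = 2.8e-05), and TAP1, HLA-DOA and HLA-DRB1 rose by 2.12 to 2.15 on the log2 scale. HLA-DMA rose by 1.96. The smaller steps were those of HLA-DQB1, at least 2.09-fold but near background in most spleen samples, TAPBP (1.02, SE 0.20) and TAP2 (0.82, SE 0.20, limma adjusted p = 0.0136). The median was 2.12 against 0.02 over all genes. Without the 1-week male 8 of 11 passed and without the 1-week female 10, with the lone 1-week sample taken to vary like the later ones. Leaving out any later sample, and the other alternatives tried for this comparison, gave 11.

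Other cell markers moved in the same samples. The mean of the 13 macrophage markers was 7.63 to 7.75 in spleen at 1 week and 8.72 to 9.05 later, with 11 of 13 higher and 1 lower. The T cell markers were at 7.49 to 7.59 against 9.18 to 9.79 (6 of 7 higher), the general leukocyte markers at 7.67 to 7.78 against 9.16 to 9.56 (3 of 3 higher) and the B cell markers at 6.96 to 7.11 against 7.92 to 8.64 (4 of 7 higher, 1 lower). Dendritic cell markers had 3 of 5 higher, with a mean of 5.40 to 5.51 at 1 week and 4.89 to 6.14 later. Erythroid markers stood at 9.50 to 9.56 at 1 week against 6.78 to 7.65 later, with 3 of 5 lower. The part of these cells in the step of the MHC genes was not tested.

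With the samples at 2 and 4 months set against those at 1 and 4 weeks, a younger group that holds both low 1-week and high 4-week values, 0 of the 11 genes passed in spleen, where 1.55% of all genes were higher and 1.56% lower. All 11 differences were positive with a median of 0.91, and the lowest limma adjusted p was 0.0567. The groups did not overlap for TAP1, TAP2, TAPBP and HLA-DQB1, 4 of 11 compared with 8.8% of all genes. TAPBP, for instance, was 7.06 and 6.91 in the first week, 7.56 and 7.76 at 4 weeks, and went on to 8.19 and 8.13 at 2 months and 8.29 and 8.10 at 4 months. HLA-DQA1 did the reverse, with 11.37 and 11.59 at 4 weeks and 10.42 to 10.72 at 2 and 4 months. With the 1-week samples left out, an alternative chosen after seeing the data, HLA-DQA1 was lower at 2 and 4 months, with a log2 difference of -0.86 (limma adjusted p = 0.0207), beside 3.59% of all genes that were lower.

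**Figure D3:**
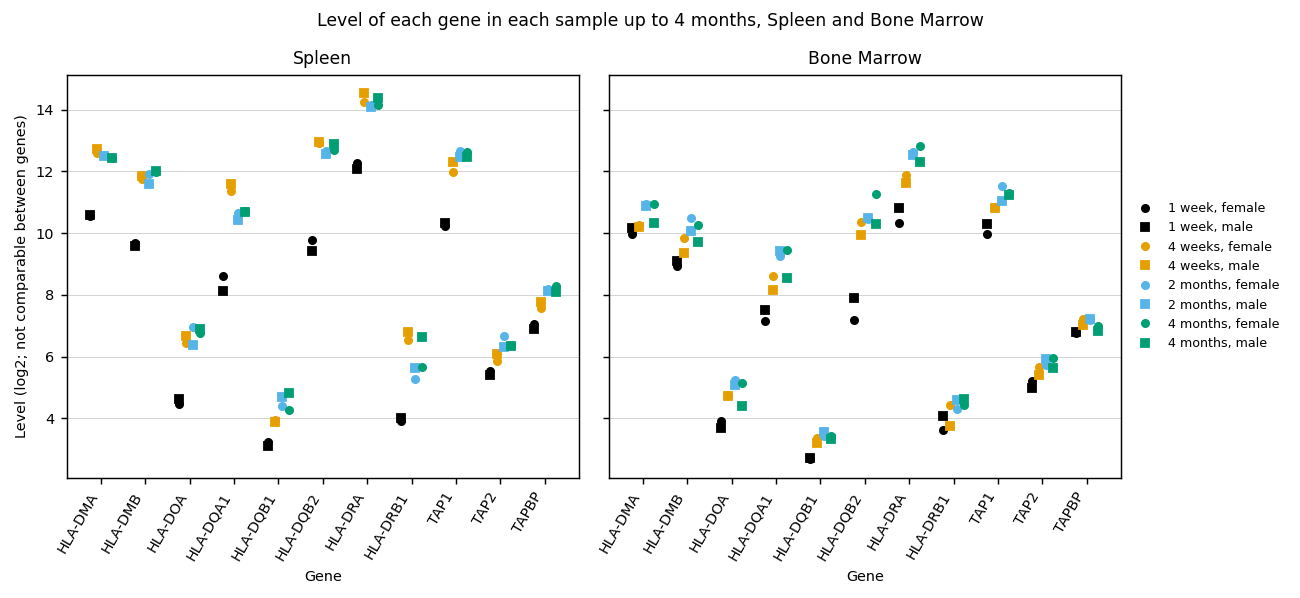
Level (normalized log2 intensity) of the 11 genes in every spleen and bone marrow sample from 1 week to 4 months, with circles for the female, squares for the male and a color for each age. In spleen both 1-week samples lie below the other 6 for every gene, and in bone marrow HLA-DRA goes from 10.33 and 10.81 at 1 week to between 12.29 and 12.83 at 2 and 4 months.

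Bone marrow climbed over more of the series. HLA-DRA was 10.33 in the female and 10.81 in the male at 1 week and 11.90 and 11.62 at 4 weeks. It reached 12.64 and 12.53 by 2 months, was 12.83 and 12.29 at 4 months, and stood at 13.68 in the 2-year-old male. From 1 to 4 weeks all 11 means went up (median step 0.59), and again from 4 weeks to 2 months (median step 0.42), where 58.0% and 53.1% of all genes did. Between the older and the younger group 0 of 11 passed, where 0.637% of all genes were higher and 0.097% lower. All 11 differences were positive, with a median of 0.70 against 0.01 over all genes. The lowest limma adjusted p was 0.0898, that of HLA-DRA (1.41, SE 0.32). The groups did not overlap for HLA-DRA, HLA-DMA and TAP1, 3 of 11 compared with 5.94% of all genes. Without the 4-week female, HLA-DRA and HLA-DQA1 passed. T cell markers were at 5.62 to 6.96 in the younger and 8.01 to 8.46 in the older samples, with 5 of 7 higher, and macrophage markers at 7.27 to 7.60 against 8.01 to 8.37, with 2 of 13 higher, and their part was not tested.

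Against the 1-week bone marrow samples, 6 of 11 genes were higher later, where 0.641% of all genes were. HLA-DQB2 rose 7.68-fold, from 7.17 and 7.88 to between 9.93 and 11.27 (log2 difference 2.94, SE 0.32, limma adjusted p = 0.000719). HLA-DRA rose 3.33-fold (1.74, SE 0.32, limma adjusted p = 0.018), HLA-DQA1 2.97-fold and TAP1 2-fold, and HLA-DOA was at least 2.15-fold higher. HLA-DQB1 passed with a difference of 0.69, but lay near background throughout. For 10 of 11 genes the 1-week and the later samples did not overlap, compared with 12.2% of all genes. The count was between 1 and 7 when single samples were left out. Leaving out either 1-week sample gave 1, each of the 4-week female, the 2-month female and male and the 4-month female 2, the 4-month male 3 and the 4-week male 7. The difference between the age contrasts of spleen and bone marrow was itself tested, and 0 of 11 passed (0.333% of all genes, lowest adjusted p = 0.414). For liver and kidney 0 of 11 passed as well (0.358% of all genes, lowest limma adjusted p = 0.205).

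Over cerebellum, hypothalamus, liver, kidney, spleen and bone marrow together, 24 samples at 2 and 4 months were set against 24 at 1 and 4 weeks with tissue in the fit and the age and sex set as a random block. Of the 11 genes 8 were higher, where 11.4% of all genes were. HLA-DRA had the greatest difference, 1.15 (SE 0.24, limma adjusted p = 0.000461), followed by HLA-DQB2 (1.05), HLA-DQA1 (0.80), HLA-DMB (0.57), HLA-DMA (0.56), HLA-DOA (0.55), HLA-DQB1 (0.26), near background in most samples, and TAP2 (0.21). HLA-DRB1 (0.27), TAP1 (0.35) and TAPBP (0.16) did not pass. When each of the 8 sets was reduced to its mean over the tissues, as is needed if a set is 1 animal, 0 of 11 passed (HLA-DRA 1.15, SE 0.35, limma adjusted p = 0.0629), while 4.9% of all genes were higher. The block correlation of the first fit was close to 0 (-0.0011), so that fit treated the samples of a set nearly as independent. With slide as a covariate 7 passed, and between 6 and 9 when single tissues were left out, 6 without spleen and 6 without bone marrow.

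**Figure D4:**
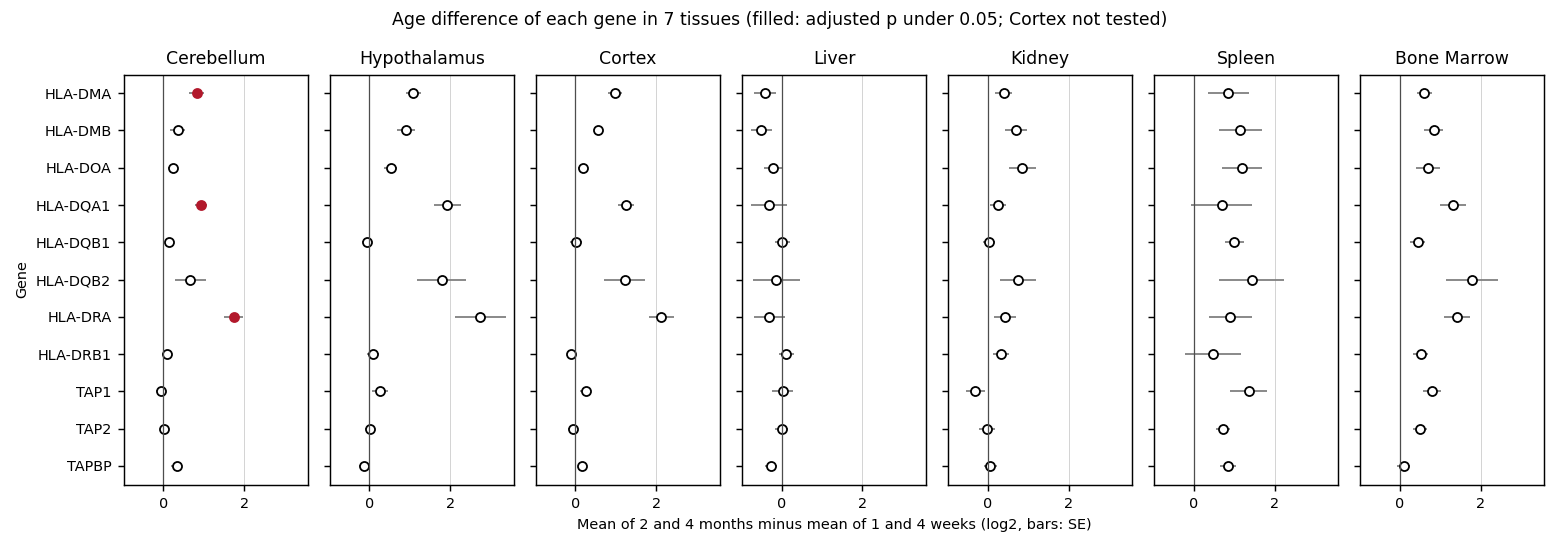
Difference between samples at 2 and 4 months and samples at 1 and 4 weeks (log2 units, older minus younger, ± SE, 4 against 4) for the 11 genes in each of 7 tissues. Filled points passed limma at an adjusted p under 0.05, which were HLA-DRA, HLA-DQA1 and HLA-DMA in cerebellum, and cortex was not tested.

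In the gonads, sampled in 1 animal per age, values are given without a test. In testis HLA-DRA went from 10.52 at 1 week and 10.44 at 4 weeks to 8.74 at 2 months, 7.71 at 4 months and 8.26 at 2 years. HLA-DQA1 ran from 7.31 through 6.72, 5.17 and 4.18 to 4.86, and TAP1 from 8.70 through 8.94, 7.72 and 7.45 to 7.16. Between 1 week and 2 years 10 of the 11 genes went down (median -1.54), where 61.1% of all genes did with a median of -0.23. HLA-DRB1, dim in testis at 3.54 to 4.49, went up by 0.89. The brighter SLA-DRB1 ranged from 6.95 to 9.32 over the same 5 samples, and its course with age is not given. Macrophage markers in testis were at 5.70 to 6.20 at 1 and 4 weeks and 4.49 to 4.91 later, and their part was not tested. In ovary HLA-DRA was 9.80, 10.93, 11.29 and 10.92 from 1 week to 4 months, and HLA-DQB2 6.45, 9.24, 9.15 and 9.04. There 10 of 11 genes were higher at 4 months than at 1 week (median 0.60 against 0.05 over all genes), and TAP2 was at 5.19 and 5.08.

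Males and females were compared over the 7 tissues at each age. None of the 11 genes passed at any of the 4 ages or over all of them, where the share of all genes that passed was 0.266%, 0.35%, 1.05% and 0.405% from the youngest to the oldest of the 4 ages and 0.379% over all of them. No gene of the 11 had an unadjusted p under 0.05, the lowest adjusted p was 0.914, and the differences lay between -0.27 and 0.52 on the log2 scale. Since a set may be 1 animal, this compares sets of samples and not the sexes.

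The 15 transcripts under RefSeq accessions repeat several genes with other probes. HLA-DRA and SLA-DRA followed each other over the 72 samples with r = 0.999, HLA-DMA and SLA-DMA with 0.998 and HLA-DMB and SLA-DMB with 0.999. All probes of these pairs, HLA and SLA alike, are tagged for cross-hybridisation. So are the probes of SLA-DOB, both SLA-DQA1 transcripts, SLA-DQB1, B2M, SLA-2 and SLA-5, so their values may include related transcripts. Whether a pair reads the same transcript was not tested, and the points share tissue and array. The pairs HLA-DRB1 and SLA-DRB1 (r = 0.800) and HLA-DQB1 and SLA-DQB1 (r = 0.784) were looser, and there the HLA probes were the dim ones. All 15 were higher in spleen than in bone marrow, where 22.4% of all genes were, and 14 of 15 were lower in brain than in liver and kidney, where 40.2% of all genes were. In cerebellum 5 of 15 rose with age, beside 0.957% of all genes, namely SLA-DRA (1.91), both SLA-DQA1 transcripts (1.37 and 1.61), SLA-DRB1 (1.30) and the class I gene SLA-2 (1.21, SE 0.25, limma adjusted p = 0.0391). B2M, the shared light chain of class I, gave 0.38 in cerebellum and did not pass (limma adjusted p = 0.318).

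Class I moved with class II in spleen after the first week. B2M rose by 1.72 (SE 0.13), SLA-2 by 2.67, SLA-5 by 2.74 and SLA-6 by 2.84 on the log2 scale, and 14 of 15 transcripts passed, beside 15.6% of all genes. SLA-3, a class I gene, was the exception with 0.31 (SE 0.52, limma adjusted p = 0.714). Over the 6 tissues pooled, 12 of 15 were higher at 2 and 4 months, beside 11.4% of all genes, among them SLA-DRA (1.16), SLA-2 (1.06) and SLA-5 (1.05), while SLA-3, SLA-7 and SLA-DQB1 did not pass. With 1 mean per age and sex set, 4 of 15 were higher, beside 4.9% of all genes, namely SLA-2, SLA-5, SLA-DOB and SLA-DQA1 (NM_001130224). The last had the largest difference of the 15 (1.22), and it lay below the other SLA-DQA1 transcript by a set-wide amount in both 4-week sets and in 1 of the 4 older ones. Between the male and the female sets, SLA-3 was the 1 of 15 that passed, at 4 months, beside 0.405% of all genes. It was higher in the male set by 1.20 (SE 0.22, limma adjusted p = 0.000806).

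A list of 60 measured genes that process antigen, regulate MHC genes or act beside them on T cells was examined in the same fits. In cerebellum 1 rose with age and 1 fell, where 0.957% of all genes were higher and 1.34% lower. CD74, the invariant chain that guards the class II groove, rose by 1.95 (SE 0.33, limma adjusted p = 0.0264), and AZGP1, a secreted class I-like protein, fell by 1.38. In spleen 5 rose and 1 fell (all genes 1.55% and 1.56%), with LAG3, an inhibitory receptor for class II (2.49), CTLA4, an inhibitory T cell receptor (2.17), and AZGP1, which no older spleen sample measured well above background (-1.98). In bone marrow 4 rose and 1 fell (all genes 0.637% and 0.097%), with ICOS, a T cell costimulator (1.95), IFNG, the cytokine that induces MHC genes (1.82), and AZGP1 (-1.70). Kidney had 2 of each, no higher a share than the 3.72% and 4.74% of all genes, among them AZGP1 (1.25), RFX5, a transcription factor of class II promoters (8.02 in the older and 9.02 in the younger samples), and CALR, a class I chaperone (-0.55). Hypothalamus and liver had 0. Over the 6 tissues pooled 16 were higher and 6 lower, where 11.4% of all genes were higher and 9.53% lower, with CD74 (1.24), LAG3 (1.07) and ICOS (0.88) the largest. With 1 mean per age and sex set 10 of 60 were higher, where 4.9% of all genes were. In that fit 3 were lower, and the share of all genes that were lower is not given.

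After the first week, 21 of the 60 genes were higher and 4 lower in spleen, where 15.6% of all genes were higher and 13.8% lower. MARCH8, a ubiquitin ligase that removes class II from the surface, fell by 3.22 (SE 0.25, limma adjusted p = 3.0e-05), ICOS rose by 2.53 and CD74 by 2.32. Of the 10 class II processing genes 4 rose and 1 fell, of the 13 class I processing genes 6 rose and 2 fell, and of the 13 co-receptors and costimulators 5 rose. The median of the 60 was 0.27 against 0.02 over all genes and 2.12 for the 11 MHC genes. In bone marrow CD74 alone passed (1.36), beside 0.641% of all genes higher. PSMB8, the inducible proteasome subunit that trims class I peptides, rose after the first week in cerebellum (1.20, with neither 1-week sample well above background), liver (1.15) and kidney (1.21). In liver CTSD, a lysosomal protease, fell by 0.89 (SE 0.19, limma adjusted p = 0.0488).

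Between tissues, 31 of the 60 genes were higher and 7 lower in spleen than in bone marrow, where 22.4% and 18.5% of all genes were, with ICOS (2.36), CD74 (2.28) and MARCH8 (-2.28) the largest. In brain 40 were lower and 8 higher than in liver and kidney, where 40.2% and 33.1% of all genes were. The largest differences there were those of CTSH, a lysosomal protease (-5.09), AZGP1 (-5.02) and LGMN, an endosomal protease (-4.43). Liver exceeded kidney for 23 and fell short for 11, where 24.7% and 26.9% of all genes did, with AZGP1 (5.87), IFNGR2, a chain of the interferon gamma receptor (2.29), and CTSL1, a lysosomal protease (1.64). Of the 60 genes 3 passed between the male and the female set at 2 months and 2 at 4 months, where 1.05% and 0.405% of all genes did. ERAP1, which trims class I peptides in the endoplasmic reticulum, was lower in the male sets at both ages (-0.55 and -0.64). RFXAP, a class II promoter factor, was lower at 2 months (-1.44), where it was well above background in 0 male and 2 female samples, and higher at 4 months (0.73). PSME3, a proteasome activator, was higher at 2 months (0.56).

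Likeness was ranked among genes outside the 11 that the array lists under a symbol, and genes listed under a RefSeq accession were left out. Left out in this way, CD74 gave r = 0.969 with HLA-DRA, and 0.864 with each tissue's mean taken off, above every ranked gene. Of the ranked genes, those most like HLA-DRA over the 72 samples were VAMP8 (Pearson r = 0.919), TLN1 (0.918), IFI30 (0.916), PSME2 (0.916) and DTX3L (0.915). With each tissue's mean taken off, the 5 most alike were PHF15 (0.774), VAMP8 (0.720), EZH1 (0.714), DGKE (0.707) and TGFBR3 (0.703). The mean of the 8 class II genes gave TLN1 (0.941), DTX3L (0.934), CXCR3 (0.932), PSME2 (0.930) and KLRC2 (0.928), and after taking off tissue means DGKE (0.793), PHF15 (0.787), ZBTB41 (0.775), ARHGAP25 (0.758) and CCL3L1 (0.745). These correlations describe samples that share tissue, age and sex sets and arrays. Within the 11 and over plain levels, HLA-DRA was closest to HLA-DQA1 (0.989) and HLA-DQB2 (0.969) and farthest from TAP2 (0.526). With each tissue's mean taken off the order changed. HLA-DQA1 (0.932) and HLA-DMA (0.884) were then closest, and HLA-DQB1 (0.248) and HLA-DRB1 (0.311), both dim, were farthest. All probes of HLA-DRA, HLA-DQA1, HLA-DQB2 and HLA-DMA are tagged for cross-hybridisation.

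Probes of a gene did not always move together. The 2 probes of HLA-DRA gave -4.69 and -4.66 for brain against liver and kidney, and those of HLA-DQB2, HLA-DMA and HLA-DMB lay as close. The 4 probes of TAPBP ran from -0.51 to -1.89 in that comparison, in the same direction. For TAP2 the 4 probes gave steps of 0.38 to 1.49 in spleen after the first week, and between -0.71 and 0.57 for brain against liver and kidney, where the mean of the gene was 0.02. HLA-DRB1 had 1 probe with 0.94 and 1 with 0.01 for the older against the younger spleen samples, and HLA-DOA 1 with 0.50 and 1 with -0.04 in cerebellum.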

How the data were processed

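The authors deposited 1 scanner output per array, read with Agilent Feature Extraction 11.5.1.1 per the labels, with a raw median intensity per spot that was not normalized between arrays, and a table of processed log2 values whose scale and centring are not stated. The raw median intensity was used here. Of 62976 spots per array 61289 were gene spots and 308 negative controls, and between 10 and 590 flagged spots were left out. Following the methods' use of quantile normalization and averages per gene, background was corrected with normexp (offset 0) in limma 3.58.1 (R 4.3.3), arrays were quantile normalized, and log2 values of repeated spots and then of probes were averaged per symbol, with 14 of 23736 genes dropped. The 8 repeat hybridisations of kidney were averaged into 1 sample. Samples were grouped by the labels' tissue, age and gender.

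Comparisons were fitted over all genes with limma (lmFit, eBayes) and Benjamini-Hochberg adjustment at 0.05. Alternatives were other background corrections, scalings, probe summaries, filters, blocks, left-out samples and the authors' table. The genes and lists were chosen with earlier results of these data known. All 11 genes are named, and of the list of 60 at most the 3 with the largest passing change per comparison. An accession was matched to a RefSeq symbol for 3019 of 10818 genes. The fits were tested on simulated data. Tables and plots were made in Python 3.11.15 with pandas 2.3.3, numpy 2.4.6 and matplotlib 3.10.9.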

Additional observations from a re-analysis of the deposited data

Results flagged for a closer look

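Of 154 groups of 4 samples of 1 gene, tissue and age group, 8 held a sample far from the other 3, and chance gives about 1 in 20. TAP2 in hypothalamus was 5.56 in the 1-week female against 5.16 to 5.22. HLA-DMA was 5.19 in the cerebellum of the 1-week female against 5.87 to 5.96, and 10.31 in the bone marrow of the 4-month male against 10.87 to 10.95. HLA-DMB was 6.75 in the cerebellum of the 2-month female against 6.25 to 6.32, and 7.2 in the cortex of the 4-month female against 7.5 in the others. HLA-DQA1 was 10.42 in the spleen of the 2-month male against 10.67 to 10.72. HLA-DRB1 was 3.23 in the cerebellum of the 4-week male against 3.33 to 3.36, and 4.26 in the kidney of the 4-month male against 3.86 to 3.9.

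The renal pelvis of the 2-year-old male, 1 array outside all comparisons, lay above every kidney sample and repeat hybridisation for 9 of the 11 genes, as it did for 13.9% of all genes. HLA-DRA was 13.49 there against 12.4 in the highest kidney sample, HLA-DQA1 9.92 against 8.81, HLA-DMA 10.85 against 9.89 and HLA-DMB 10.04 against 9.77. HLA-DQB2 was 10.20 against 9.72, HLA-DOA 5.86 against 5.74, TAP1 11.23 against 10.03, TAPBP 6.87 against 6.72 and HLA-DRB1 4.39 against 4.3. TAP2 and HLA-DQB1 lay within the kidney values.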

How the results depend on the processing

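Counts of passing genes among the 11 stayed within 1.5 times their value under the alternatives tried except as follows. In cerebellum a demand of 2-fold left 1 gene with age, and a normexp offset of 50 gave 0 for the first week. In kidney that offset gave 1 for the first week, and in bone marrow 3, as did sex as a replicate block. In spleen the older against the younger samples gave 2 with the scanner's processed signal, 1 with the offset, 1 with median scaling, 6 with a linear trend and 1 without the 1-week samples (HLA-DQA1, -0.86, positive with them). The linear trend gave 3 in hypothalamus, where 0.143% of all genes were higher, and 1 in bone marrow. Set means gave 0 for the 6 tissues pooled. The causes were not tested. For most of these alternatives the share of all genes that passed is not given. Their counts thus show how far the calls depend on the processing, and nothing about these genes beside all others. Leaving out single samples gave 0 to 3 in cerebellum, 0 to 2 in spleen and 0 to 2 in bone marrow with age, 0 to 2 in cerebellum, 1 to 2 in kidney, 8 to 11 in spleen and 1 to 7 in bone marrow for the first week, 6 to 9 for the 6 tissues pooled (single tissues), 3 to 4 for liver against kidney and 4 to 5 genes without overlap in cortex. With sex as a replicate block 2 genes passed in cerebellum with age and 0 in spleen, and the correlation between samples of one sex was -0.03 to 0.21 over the tissues, 0.21 in cerebellum and 0.15 in bone marrow, so that not all pairs were over 0.1. A slide block within a tissue could not be fitted, since the 8 samples of a tissue lay on 8 slides. HLA-DQB1 lay near background in nearly all samples.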

Other observations

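Among the transcripts listed under RefSeq accessions, SLA-3 and SLA-DQA1 took values that followed the age and sex set across tissues. SLA-3, a class I gene, differed from its tissue means by -2.16 to -1.16 on the log2 scale in the 4-month female in all 7 tissues outside the gonads. In the 2-year-old male it differed by 0.65 to 1.77 and in the 2-month female by 0.49 to 0.99. The difference between the 2 transcripts named SLA-DQA1 (NM_001130224 minus NM_001114062) lay between -1.26 and -0.70 in the 4-month male, between -1.09 and -0.63 in the 4-week female and between -1.32 and -0.80 in the 4-week male, and between -0.26 and 0.36 in the other 6 sets. These patterns were found by looking at the values, and apart from the comparison of SLA-3 between the male and the female sets they were not tested.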
